A study of Mus musculus with 5 samples.

Results

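Mitotic kinases, centromere proteins and their partners were followed as 10 genes that act in the G2 and M phases of the cell cycle (Mki67, Top2a, Aurka, Aurkb, Bub1, Plk1, Cenpe, Cenpf, Ccnb1 and Cdk1), in 5 libraries of mouse embryonic pituitary. They were chosen by name, leaving out kinesins apart from Cenpe, and all 10 were found among the 20097 gene symbols of the all-gene table. The RNA came from embryos at e12.5 on a B6;129 background, which the labels describe as separate biological replicates. The 3 control embryos carried the genotype Itgb1 f/f, with both alleles of the integrin beta 1 gene floxed and no Cre. The other 2 embryos, labelled knockout, carried Itgb1 f/f and Pitx1-cre, and are called library 13 and library 16 here after their labels. The controls therefore share the floxed alleles but not the transgene. Pitx1-cre acts in oral ectoderm and the pituitary that derives from it, so cells of other origin in the gland, such as those of vessels, keep Itgb1. The labels name the cells as epithelial pituitary cells and mention no sorting.

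A cell that has copied its DNA enters mitosis when Cdk1, bound to its partner cyclin B1, becomes active. The Aurora and Polo kinases then separate the centrosomes, correct faulty attachments of chromosomes and drive division to its end, while Bub1 and the centromere proteins Cenpe and Cenpf sit at kinetochores, where spindle fibres attach. The RNAs of these genes are made mainly in G2 and M phase, so in a bulk sample their level follows how many cells are dividing. In the embryonic pituitary most dividing cells are progenitors of the pouch from which the gland forms.

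Genes of this kind are known to be switched on in late cell cycle through a CCAAT box and an element called CHR. The CCAAT box binds the factor NF-Y. For CHR, only the letters TTTGAA and their reverse complement were searched here. RefSeq promoters on build GRCm38.p6 were matched for 9 of the 10 genes, Aurkb being the one not matched. Within the 250 bases before the start of the gene, CCAAT or its reverse complement ATTGG was present in 9 of 9 promoters. The share over 27025 promoters of all genes was 34.5%, and among 46 promoters of other G2 and M phase genes it was 63.0%. TTTGAA or its reverse complement TTCAAA was present in 3 of the 9, with 16.3% over all genes and 26.1% among the other G2 and M phase genes. The promoters that held both were those of Cdk1, Mki67 and Top2a. They are printed first, followed by Ccnb1, with 2 CCAAT boxes and no TTTGAA, and Cenpe, with 1 CCAAT box. Capitals mark every match, on either strand, and no 2 matches overlap. A match is a run of letters and was not tested as a binding site. Other spellings of CHR, and bases past the start of the gene, were not searched.
Cdk1, chr10:69352913-69353162, minus strand: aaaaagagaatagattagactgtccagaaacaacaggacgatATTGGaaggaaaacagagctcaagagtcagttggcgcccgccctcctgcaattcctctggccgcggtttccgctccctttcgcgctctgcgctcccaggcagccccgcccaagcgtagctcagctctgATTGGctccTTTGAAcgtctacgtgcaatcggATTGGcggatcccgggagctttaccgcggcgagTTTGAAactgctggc
Mki67, chr7:135716380-135716629, minus strand: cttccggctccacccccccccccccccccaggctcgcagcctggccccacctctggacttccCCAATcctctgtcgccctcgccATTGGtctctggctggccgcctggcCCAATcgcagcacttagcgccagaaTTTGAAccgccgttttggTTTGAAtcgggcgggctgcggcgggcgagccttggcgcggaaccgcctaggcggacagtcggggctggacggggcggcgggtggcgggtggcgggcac
Top2a, chr11:99024190-99024439, minus strand: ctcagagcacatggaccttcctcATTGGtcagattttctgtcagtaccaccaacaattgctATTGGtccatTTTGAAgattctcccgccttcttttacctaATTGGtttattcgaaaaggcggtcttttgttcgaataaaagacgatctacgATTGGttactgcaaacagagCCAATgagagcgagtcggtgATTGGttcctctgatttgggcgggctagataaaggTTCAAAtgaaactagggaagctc
Ccnb1, chr13:100786487-100786736, minus strand: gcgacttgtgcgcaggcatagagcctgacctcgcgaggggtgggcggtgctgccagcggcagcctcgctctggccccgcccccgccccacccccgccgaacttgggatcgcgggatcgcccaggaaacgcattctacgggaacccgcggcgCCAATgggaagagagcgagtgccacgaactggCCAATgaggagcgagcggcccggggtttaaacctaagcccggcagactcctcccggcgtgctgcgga
Cenpe, chr3:135212313-135212562, plus strand: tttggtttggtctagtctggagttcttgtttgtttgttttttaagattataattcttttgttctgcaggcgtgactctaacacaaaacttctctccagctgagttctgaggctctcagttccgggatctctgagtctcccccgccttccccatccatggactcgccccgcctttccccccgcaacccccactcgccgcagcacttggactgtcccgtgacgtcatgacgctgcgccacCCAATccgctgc

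Levels are given as tags (mapped reads) of every 10000000 in the library, counted over a region that spans the gene's exons and introns. Reads recovered over listed genes numbered 4480809 to 6143263 per library, and the ribosomal precursor Rn45s took 16.8% to 23.5% of control tags, 14.2% for library 13 and 8.9% for library 16. Library 16 stood apart: olfactory and vomeronasal receptor genes, which few tissues use, had 1.497 tags per kilobase there, against 0.156 to 0.395 in controls and 0.472 in library 13. Levels in library 16 also followed region length more closely, with a Spearman correlation of 0.94, against 0.68 to 0.76 in controls and 0.73 in library 13. The median of all 19313 genes tested lay 0.97 higher in the knockout libraries on the log2 scale. Each level is therefore given on a pair of scales, the deposited level and a corrected level. For the corrected level, the background of the receptor genes was subtracted per kilobase of region. Scaling with TMM factors followed, which assume that most genes do not change. Before subtraction the TMM factor of library 16 was 2.14, against 0.57 to 0.996 in controls and 1.297 in library 13. After it, library 16 had 1.631 and library 13 had 1.431. Itgb1 itself was at 273, 426 and 431 among the controls, 446 for library 13 and 186 for library 16, and the corrected levels were 403, 374 and 450, then 281 and 116. In library 13 its deposited level was above every control, as for 73.3% of all genes. Its corrected level there was below every control, as for 20.8%. Its region covers more than the deleted part, so neither level checks the knockout label. The pituitary pouch markers Pitx1, Lhx3, Hesx1, Six6 and Sox2 had tags in every library.

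Per kilobase of region, the order of the 10 genes in the controls ran from Mki67 to Cenpe. Mki67, the nuclear antigen used to mark dividing cells, was at 22.6 ± 6.42 tags per kilobase (SD, n = 3), and Top2a, the topoisomerase that untangles copied chromosomes, at 14.4 ± 3.17. Ccnb1 followed at 9.81 ± 2.08 and Cdk1 at 6.60 ± 2.18. Cenpf, Aurkb, Plk1, Aurka, Bub1 and Cenpe lay between 4.99 and 2.56 in that order. The control ranges of every pair of neighbours in the order overlapped. The regions include introns, so this order is per length of gene, not of messenger RNA.

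Among the 2 nuclear proteins, Mki67 (mm9 chromosome 7, 142881871 to 142907662) was at 394, 649 and 704 in control libraries 9, 10 and 12, at 1151 in library 13 and at 279 in library 16. Library 13 lay above every control and library 16 below every control. The corrected levels were 599, 587 and 743 among the controls, 755 for library 13 and 240 for library 16. On that scale library 13 was just above the highest control, whereas library 16 held 0.37 of the control mean. Top2a (mm9 chromosome 11, 98854661 to 98885103) was at 328, 513 and 470.0 among the controls, 681 for library 13 and 158 for library 16. Its corrected levels were 496, 460 and 494 in the controls, 442 and 113. The controls agreed closely here, with a coefficient of variation of 4.2%, and both knockout libraries lay below them, library 13 by little and library 16 at 0.23 of the control mean.

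The kinases differed from one another. Plk1, the Polo kinase that acts from mitotic entry to cytokinesis, was at 34.5, 31.8 and 36.4 among the controls, 77.3 for library 13 and 26.4 for library 16. Its corrected levels spread widely among controls (49.6, 25.7 and 37.0), with library 13 inside that range at 48.2 and library 16 below it at 11.9. Bub1, the checkpoint kinase of kinetochores, was at 60.0, 91.8 and 101 among the controls, 165 for library 13 and 61.8 for library 16. Library 16 was thus inside the control range before correction and far below it after, at 15.6 against 80.5, 73.1 and 102. The background estimate accounts for 74.7% of the tags of Bub1 in library 16, so this corrected level rests on that estimate more than any other of the 10.

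Aurka, the Aurora kinase of centrosomes and spindle poles, was at 31.8, 58.2 and 35.5 among the controls, 105 for library 13 and 39.1 for library 16. After correction it was at 43.9, 48.5 and 35.4, then 65.7 and 18.9, so library 13 stood above the controls and library 16 below. Aurkb, the Aurora kinase of the chromosomal passenger complex, was the exception among the 10. It was at 15.5, 27.3 and 30.0 among the controls, 64.5 for library 13 and 35.5 for library 16. Both knockout libraries lay above every control on the deposited scale, where library 16 did so for 72.9% of all genes. The corrected levels were 21.8, 23.2 and 31.0, then 41.2 and 27.6, which puts library 16 within the controls. Aurkb had the lowest deposited level of the 10 in each control, though not in library 16 or per kilobase. The 39 reads of library 16 have an exact 95% Poisson interval of 25.2 to 48.5 tags, which overlaps that of control library 12, 20.7 to 42.1. Such intervals cover counting error only. The estimated background was 22.0% of its tags in library 16.

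The centromere genes span the longest regions of the 10. Cenpe, the kinetochore motor protein that moves chromosomes to the spindle equator, was at 109, 194 and 160.0 among the controls, 278 for library 13 and 186 for library 16. Its corrected levels were 145, 156 and 160, then 166 and 96.2, or 1.08 and 0.63 of the control mean. Cenpf, a large protein of the outer kinetochore, was at 159, 280.0 and 259 among the controls, 432 for library 13 and 181 for library 16. After correction it was at 228, 240 and 267, then 272 and 111. For both genes library 13 was just above the highest control and library 16 well below the lowest.

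The cyclin and its kinase lay above every control in library 13 and below every control in library 16 on the deposited scale, as Mki67 did. Ccnb1, the B-type cyclin, was at 51.8, 73.6 and 79.1 among the controls, 101 for library 13 and 32.7 for library 16. The corrected levels were 77.4, 65.1 and 82.8 in the controls, 64.7 in library 13, just below the lowest of them, and 22.3 in library 16. The sources used here do not say how reads that also match Ccnb1 pseudogenes were counted. Cdk1 was at 65.5, 132 and 109 among the controls, 215 for library 13 and 62.7 for library 16. Its corrected levels were 95.1, 115 and 113, then 138 and 39.5. Cdk1 in library 16 was therefore the lowest of the 5 on both scales. As deposited this rests on 69 reads against 72 in control library 9, with Poisson intervals of 48.8 to 79.4 and 51.2 to 82.4 tags. The deposited intervals of library 16 and the lowest control also overlapped for Plk1 and Ccnb1, but not for Mki67 and Top2a.

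**Figure D1:**
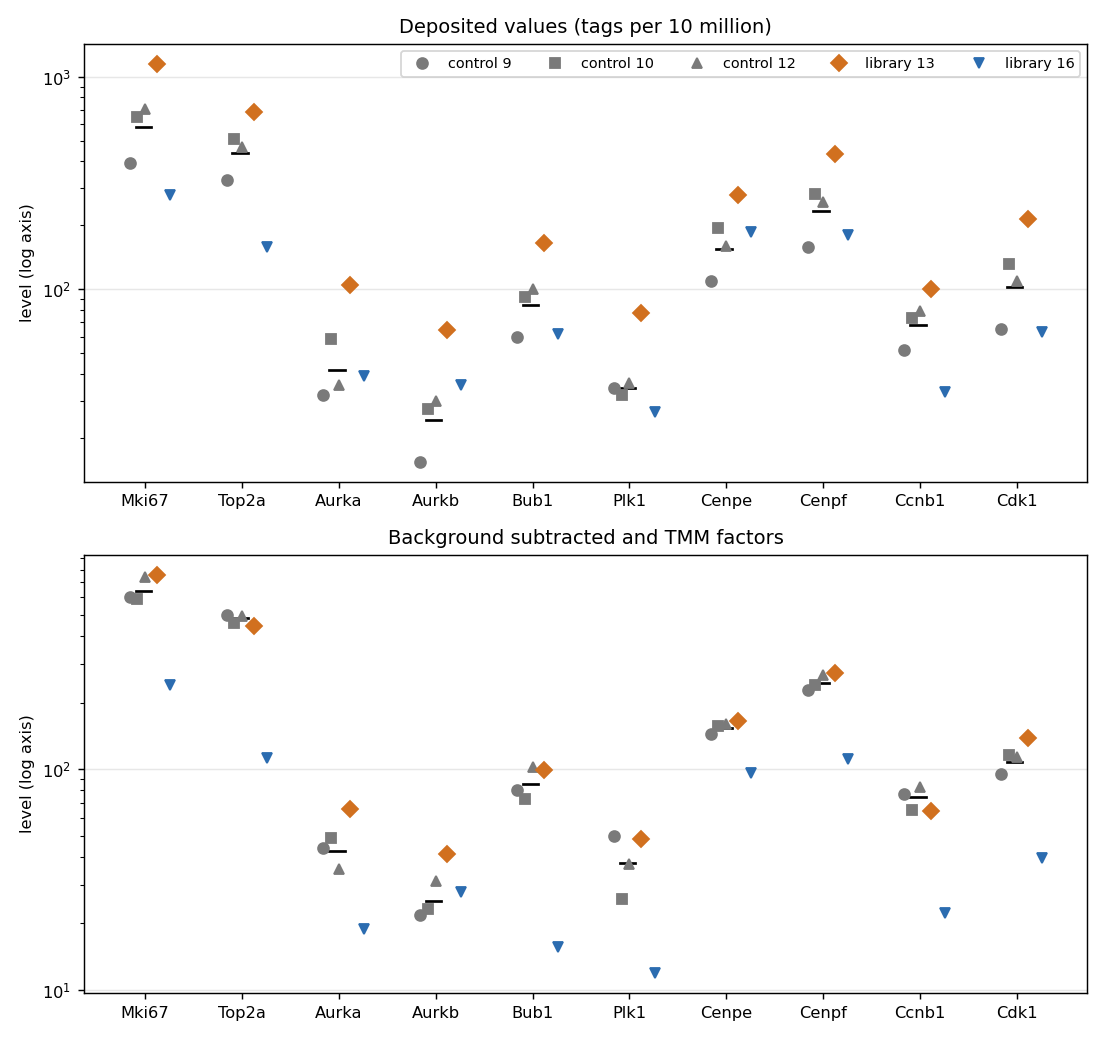
Level of each of the 10 genes in every library, on a log axis, as deposited (top) and corrected (bottom); each symbol is 1 library and the bar is the mean of the 3 controls. Library 13 lies above every control for 10 of 10 genes in the top panel and for 6 of 10 in the bottom one. Of all genes tested, 73.3% and 24.3% did so. Library 16 lies below every control for 5 and 9 of 10, beside 7.86% and 46.3% of all genes.

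Counted over the 10 genes, library 13 was above every control for 10 on the deposited scale, where 73.3% of all genes tested were too. On the corrected scale it was above for 6 and below for 2, with 24.3% and 20.8% of all genes. With TMM factors alone it was above for 4, against 20.8% of all genes. Library 16 was below every control for 5 of 10 as deposited, against 7.86% of all genes, and for 9 of 10 after correction, against 46.3%. With TMM factors alone it was below for 10 of 10, against 39.7%. Library 16 was below library 13 for each of the 10 on all 3 scales, which held for 36.7%, 55.1% and 46.9% of all genes.

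The design asks whether deleting Itgb1 in the pituitary changed gene expression. Between the genotypes none of the 10 genes passed an adjusted p of 0.05, and 0% of the 19313 genes did (limma with a trend on log2(level + 1), Benjamini-Hochberg adjustment over all genes). At an unadjusted p under 0.05 the fit held 5632 genes with higher levels (29.2%) and 4 with lower levels (0.0207%), and none of the 10. Log2 changes of the 10 genes ran from -0.39 for Top2a (SE 0.54) to 1.01 for Aurkb (SE 0.64), with adjusted p of 0.257 to 0.994 in limma. These include the shift of the median gene. Relative to it, 9 of the 10 were lower and their median was -0.67, with Top2a at -1.35, Ccnb1 at -1.19, Mki67 at -0.96 and Aurkb at 0.04. On corrected levels the median log2 change of the 10 was -0.55 and that of all genes -0.09. There, limma's adjusted p ran from 0.819 to 0.898, with SE of 0.37 to 0.70. An average over library 13 and library 16 describes neither: it joins one library above or near the controls with one below them.

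Each knockout library was therefore also set against the controls without the other, a comparison added after the data were seen. It assumes that the lone library varies like the controls. For library 16 on corrected levels, 6 of the 10 genes were called lower (Mki67, Top2a, Bub1, Cenpf, Ccnb1 and Cdk1), and 19.7% of all 14451 genes were as well, with 6.26% called higher (limma). The largest change among the 6 was that of Bub1, at -2.35 (SE 0.29, adjusted p = 0.0108 in limma), followed by Top2a at -2.09 (SE 0.18, adjusted p = 0.00907). The place of Bub1 rests on the background subtraction: without library 13 its log2 change was -0.41 on deposited levels and -1.64 in edgeR, where Top2a had -1.43 and -2.66. Ccnb1 changed by -1.70, Cdk1 by -1.42, Mki67 by -1.41 and Cenpf by -1.13. Aurka at -1.12, Plk1 at -1.52 and Cenpe at -0.67 had adjusted p of 0.0554, 0.058 and 0.0572 in limma, and Aurkb stood at 0.14 with 0.783. For library 13 none of the 10 was called on corrected levels, with limma's adjusted p at 0.999 for each, and 0.0224% of all genes were called. Its log2 changes ran from -0.20 for Ccnb1 to 0.70 for Aurkb, with SE of 0.23 to 0.39. On recovered reads without library 13, edgeR's quasi-likelihood test called 9 of the 10 lower, all but Aurkb, where it called 23.6% of all genes lower and 20.9% higher. On deposited levels without library 13, limma called none of the 10, with the lowest adjusted p at 0.0856 for Top2a.

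**Figure D2:**
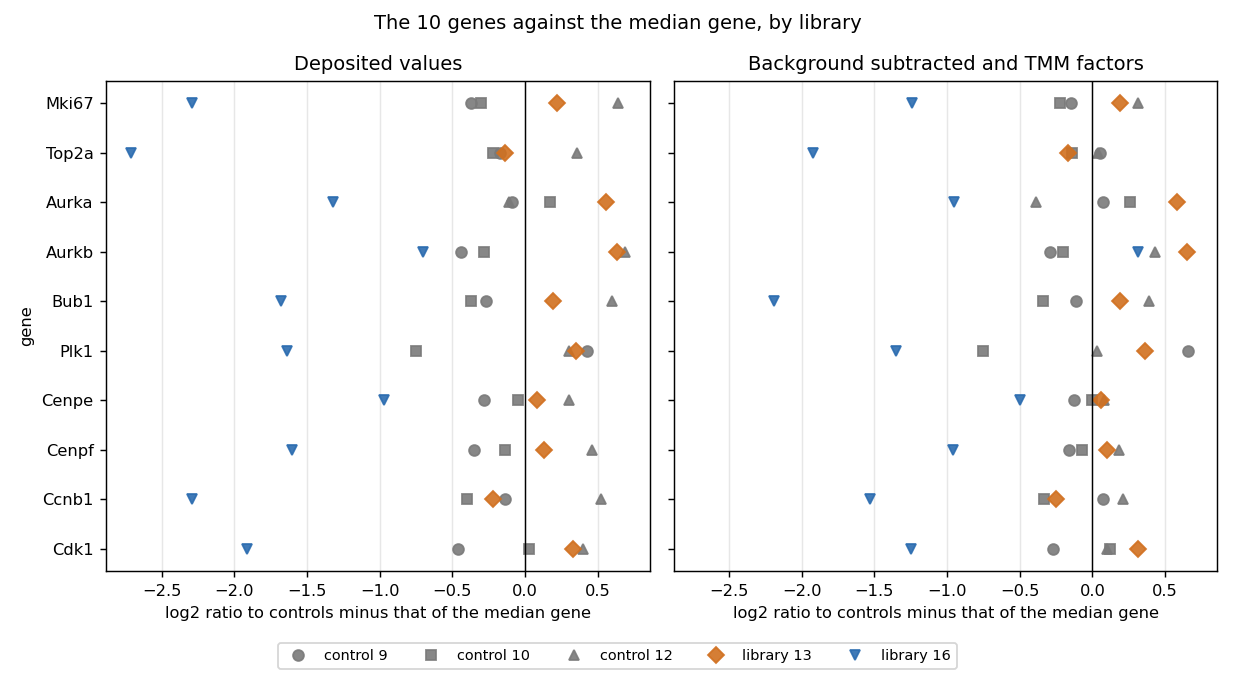
Log2 ratio of each gene to the controls minus that of the median gene tested, with 1 symbol per library; each control is set against the other 2 controls. Library 16 lies left of every control for all 10 genes as deposited and for 9 after correction, Aurkb being the exception. Library 13 lies between -0.25 and 0.65 on both. The share of all genes left of every control was not counted on this measure. By level, library 16 was below every control for 39.7% of all genes with TMM factors and 46.3% after correction.

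The estimated background bears on library 16 more than on the others. It accounts for 13.8% of the tags of Mki67 there, 28.8% for Top2a, 31.8% for Ccnb1, 36.9% for Cdk1, 38.6% for Cenpf, 48.3% for Cenpe, 51.7% for Aurka and 54.7% for Plk1. In the controls and library 13 the share was at most 14.2% for any of the 10. Mki67, Top2a, Ccnb1, Cdk1 and Plk1, whose shares run from the lowest to 54.7%, were below every control in library 16 as deposited and on corrected levels. Aurkb, at 22.0%, was above every control as deposited and within the controls on corrected levels. With TMM factors and no subtraction, each of the 10 was below every control there, Aurkb at 20.1 against 25.5 to 41.9. The estimate assumes an even background along the genome, which was not tested.

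**Figure D3:**
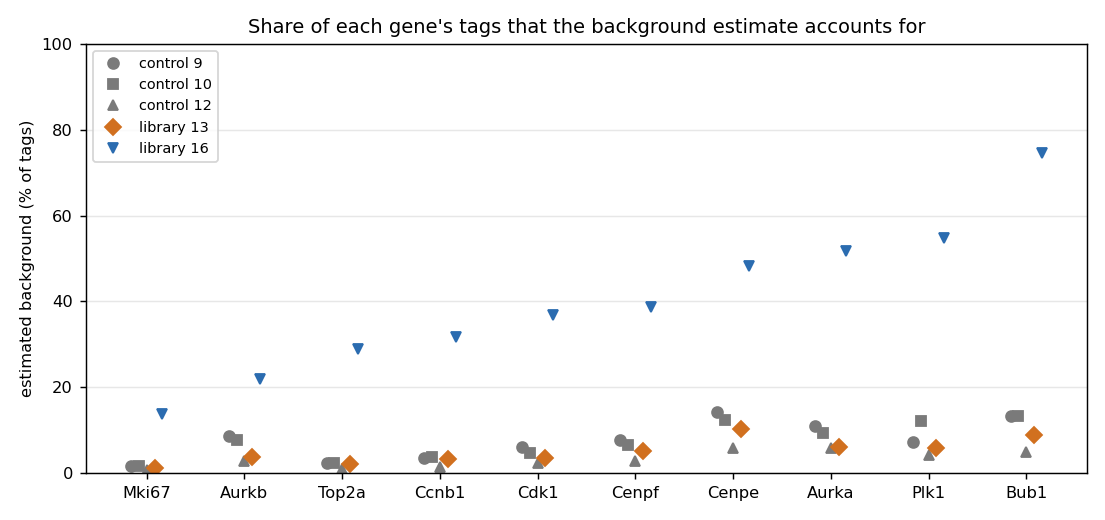
Percent of each gene's tags that the receptor-gene background accounts for, in every library, with genes in order of the share in library 16. In library 16 the share runs from 13.8% for Mki67 to 74.7% for Bub1, and in the other 4 libraries it stays at or below 14.2%.

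A rank within a library is free of its scaling, though not of its background. By tags per kilobase, Mki67 stood at percentile 98.2 to 98.6 of the genes tested among the controls, 98.5 for library 13 and 98.0 for library 16. Top2a was at 97.3 to 97.6 in the controls, then 96.8 and 92.6, and Ccnb1 at 95.4 to 96.5, then 94.8 and 90.5. Cdk1 was at 92.2 to 93.9, then 94.5 and 85.7. Cenpf was at 89.5 to 91.1, then 90.7 and 83.8, and Plk1 at 78.9 to 90.2, then 88.8 and 55.1. Aurka was at 77.7 to 84.9, then 88.3 and 61.6, and Cenpe at 76.6 to 78.3, then 78.4 and 68.8. The widest gap was that of Bub1, at 76.3 to 82.5 among the controls, 81.5 for library 13 and 21.1 for library 16. Aurkb stood higher in both knockout libraries than in any control, at 93.6 and 95.9 against 87.4 to 91.4. The share of all genes with such ranks was not counted.

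The make-up of the group was read within each library. As a share of the summed corrected level of the 10 genes, Top2a held 27.0%, 25.6% and 23.9% among the controls, 21.1% for library 13 and 16.2% for library 16. Ccnb1 held 4.22%, 3.63% and 4.01%, then 3.09% and 3.21%. Both genes were thus below every control in both knockout libraries, as were 3.48% of all genes set against the same sum. Aurkb held 1.19%, 1.29% and 1.5% among the controls, 1.97% for library 13 and 3.97% for library 16, and Aurka 2.39%, 2.71% and 1.71%, then 3.14% and 2.71%. Both Aurora genes were above every control in both, Aurka in library 16 by less than the rounding here, as were 11.4% of all genes. Cenpe held 7.74% to 8.70% among the controls, 7.92% for library 13 and 13.8% for library 16. These shares were examined after the data were seen and have no test of their own.

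The other genes of G2 and M phase were taken from a list of 61 without kinesins, of which 58 were measured. None passed limma's adjusted p of 0.05 between the genotypes on either scale. On deposited levels 47 of the 58 were below the median gene and 11 above, with a median relative change of -0.26. On corrected levels 28 were below and 30 above, and their median log2 change was -0.08, beside -0.09 for all genes. Relative to the median gene their deposited median was 0.20 in library 13 and -0.89 in library 16, beside 0.21 and -1.66 for the 10 genes. The corrected medians were 0.23 and -0.28, beside 0.19 and -1.24 for the 10. Without library 13, limma called 15 of the 58 lower and 1 higher on corrected levels, in a fit that called 19.7% of all genes lower and 6.26% higher. Among checkpoint genes, Bub1b, the partner kinase of the mitotic checkpoint complex, was at 88.5, 97.3 and 97.2 among the controls, 120 for library 13 and 72.6 for library 16 (corrected). Mad1l1, which anchors Mad2 at kinetochores, was the 1 called higher, at 239, 220 and 230, then 172 and 425.

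By role, the corrected median in library 16 relative to the median gene was -1.40 for 3 condensin genes, -1.02 for 5 checkpoint genes and -0.86 for 4 cytokinesis genes. The other 6 role groups lay nearer to the median gene, from -0.30 for 17 kinetochore and centromere genes to -0.08 for 8 other mitotic kinases and spindle genes. Of the condensin genes, which compact mitotic chromosomes, Ncapg was at 83.8, 95.2 and 114 among the controls, 86.5 for library 13 and 15.4 for library 16, and Smc2 at 86.3, 114 and 151, then 105 and 37.8 (corrected). Both were called lower in library 16 (limma, adjusted p of 0.0101 and 0.0305), as were Ect2, needed for cytokinesis, at 0.33 of the control mean, and Ccna2, the cyclin of S and G2 phase, at 0.35. The cytokinesis gene Anln was not, at 0.85. Among kinetochore genes Cenpc1 was at 0.19 of the control mean (adjusted p = 0.0241 in limma) and Casc5 at 0.54 (adjusted p = 0.0539). Sgol2, which protects cohesion at centromeres, was at 0.19 and Incenp, scaffold of the complex that holds Aurkb, at 0.72. As deposited, library 16 was within the controls for Sgol2 (73.6 against 68.2 to 77.3), Cenpc1 (96.4 against 50.9 to 126), Smc2 and Ect2. Ncapg, at 60.0, was just below its lowest control, 61.8, and Ccna2, at 54.5, was below its lowest, 81.8. The ratios here are of corrected levels, so they rest on the correction. Tpx2, the activator of Aurka, and Cdc25a, a phosphatase that activates cyclin-dependent kinases, were at 0.57 and 0.51, and both passed (limma, adjusted p of 0.0416 and 0.0433). Melk was at 1.16, Espl1 (separase) at 0.91, Fzr1 at 0.81, Lin54 at 0.76 and Lin9 at 0.50, and none of these passed.

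**Figure D4:**
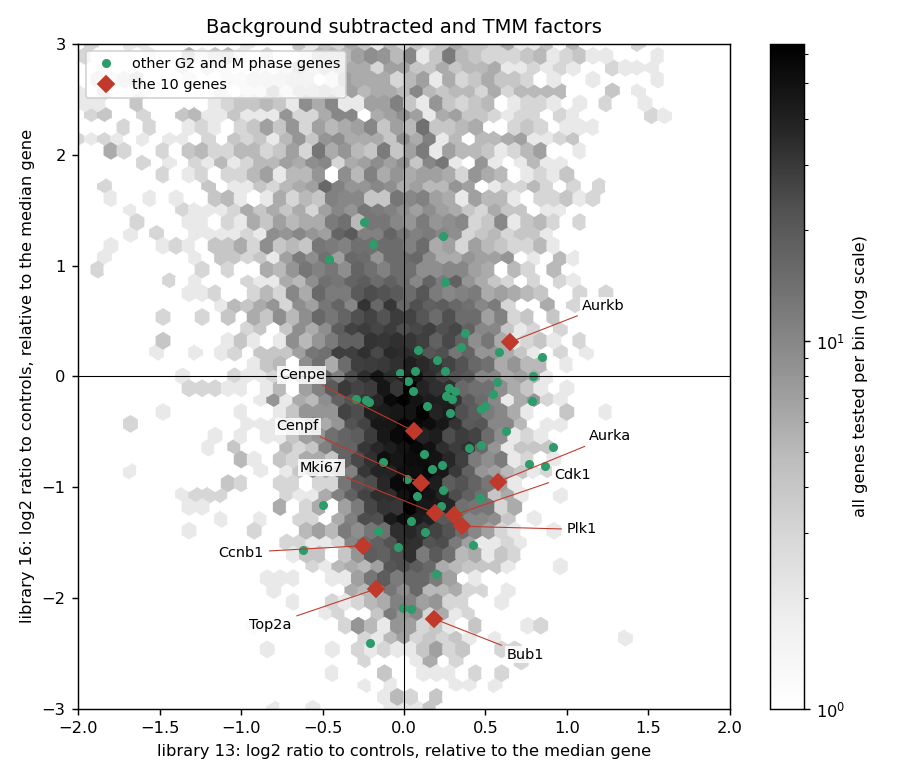
Corrected log2 ratio to the controls, relative to the median gene, in library 13 (horizontal) and library 16 (vertical); shading counts all genes tested, and 1367 of 14528 genes lie beyond the axes. The 10 genes sit between -0.25 and 0.65 on the horizontal axis and, apart from Aurkb at 0.31, between -0.50 and -2.19 on the vertical axis.

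Markers of the cell types that a dissected gland can hold were read in the same libraries. In bulk tissue, fewer dividing cells and less RNA per cell cannot be told apart. The 10 genes summed to 1249, 2050 and 1984 among the controls, 3270 for library 13 and 1063 for library 16 as deposited. Their corrected levels summed to 1835, 1794 and 2066, then 2092 and 696.0. The corrected sum of 5 endothelial markers was 249 to 303 among the controls, 258 for library 13 and 272 for library 16, so library 16 lay within the controls. Sums below every control in both knockout libraries were those of 6 head mesenchyme markers, at 895 to 1007, then 745 and 446, and of 7 hypothalamus and neuron markers, at 599 to 736, then 458 and 246. The 5 erythroid markers summed to 258 to 467, then 178 and 552. Both knockout libraries were above every control for 5 skeletal muscle markers, at 69.7 to 133, then 144 and 163, and for 5 surface epithelium markers, at 151 to 197, then 213 and 227. Markers within a list did not all move together. The sums above are of corrected levels, and the single markers here are deposited levels. As deposited in library 16, Trp63 (405), Krt5 (35.5) and Krt14 (15.5) were above every control, Krt8 (51.8) within and Krt18 (58.2) below. On that scale library 16 was above every control for 72.9% of all genes. Ttn was at 521 of the 625 that the muscle markers summed to in library 16 as deposited. Of the neuron list as deposited, Elavl3, Stmn2 and Neurod1 were above every control, Map2 and Tubb3 within, and Nkx2-1 and Rax below. Of the head mesenchyme list, Prrx1 (165) and Pdgfra (167) were above every control, Twist1 and Col1a1 within, and Col1a2 and Col3a1 below. Hba-x was at 487 of the 613 that the erythroid markers summed to in library 16 as deposited. The 4 macrophage markers summed to 36.3 to 43.4, then 38.9 and 69.3. Of these markers Hbb-bh1 and Myog were at 0 in 1 control each, and Ptprc and Aif1 were at 0 in library 16 once background was taken off. The part of other cell types in the lower levels of library 16 was not tested.

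Some genes outside the G2 and M phase list had profiles nearer to the mean of the 10 than any of the 10 had. On the deposited scale likeness was measured as the root mean square difference, over the 5 libraries, between a gene's centred log2 profile relative to the median gene and the mean profile of the 10. The 5 nearest of 11053 other genes were Ilf2, Ptov1, Prdx4, Pogk and Abce1, at 0.022 to 0.034, and none is on the list of G2 and M phase genes. The 10 genes lay between 0.073 for Bub1 and 0.413 for Aurkb from their own mean, with a median of 0.258, and 1836 of the other genes (16.6%) were nearer than that. The nearest gene of the G2 and M phase list was Birc5 (survivin), at 0.143 and place 461, chosen here after its value was seen.

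The authors' deposited table, a list of changed genes, names 1 of the 10, Mki67, and holds 5.1% of all symbols. The authors' deposited table gives it a log2 fold change of 1.1 and a p of 5.26e-03, higher in the knockout. In the all-gene table Mki67 was at 1.98 times the control mean in library 13 and at 0.48 times in library 16. From the list of 61 other G2 and M phase genes the authors named 2, both higher in the knockout. These were Cdc25b, with a log2 fold change of 1.44, and Ncapd2, with 1.42. The sources used here do not say which libraries the authors' deposited table compared.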

How the data were processed

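Total RNA of 5 pituitaries went through Ribo-Zero removal of ribosomal RNA and a ScriptSeq v2 kit that keeps strand, per the labels' protocols. Bowtie2, HOMER, edgeR and build mm9 are named in the submitters' processing notes, with no roles. The authors deposited a normalized signal per gene region, scaled to 10000000 tags a library per the file headers, with every region given as plus strand. They also deposited a table of changed genes with a log2 fold change, the same change as a linear ratio, its p-value, and for each genotype a score of a unit that no header names.

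All 100.00% of values were whole multiples of 10/11 within 0.01 reads, so reads were recovered as level times 1.1 for count tests (edgeR 4.0.16, DESeq2 1.42.0) as alternatives. With all 5 libraries these called 0 and 25 genes, and none of the 10; edgeR had 370 higher and 87 lower genes at an unadjusted p under 0.05. The longest region was kept per symbol. No listed region overlaps those of the 10 genes. The test was limma 3.58.1 under R 4.3.3, fitted to log2(level + 1) with a mean-variance trend, over genes with a mean of at least 1; all 10 passed. Fold changes on this scale understate those of low genes. Corrected levels subtracted the tags per kilobase of 405 autosomal receptor genes, with a floor of 0, then used TMM factors and a mean of at least 5 (14528 genes). Exact Poisson intervals are at 95%. The summed level of the pouch progenitor markers is not reported here. The scripts were tested on simulated data. The genes and lists were chosen with earlier results of these data known. Named genes beyond the 10 were the 2 of highest mean level in each role group of the list, and the 5 genes nearest in pattern at a mean of at least 20.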

Additional observations from a re-analysis of the deposited data

How the results depend on the processing

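No paired analysis was possible because the control and knockout libraries share no replicate number. The 10 genes kept 0 calls in every fit with all 5 libraries: other scalings, pseudocounts, filters and regions, limma without a trend, and edgeR; DESeq2 gave an adjusted p for Mki67 and Top2a only. The count over all genes was 0 except for 634 at a mean of at least 20 and 25 with DESeq2. The relative change of Aurkb, 0.04, went to 0 with TMM factors or size factors. Library 13 lay above every control for 10 genes as deposited, 4 with TMM factors and 6 after correction, beside 73.3%, 20.8% and 24.3% of all genes. Library 16 lay below every control for 5, 10 and 9, beside 7.86%, 39.7% and 46.3%. Without control library 9, 10 or 12, the median relative change of the 10 was -0.77, -0.75 or -0.48 as deposited, beside -0.67 with all 5 libraries. Fits that left out library 13 or library 16 moved it more. Calls over all genes ran from 0 to 7945 and calls among the 10 from 0 to 9, the highest without library 13 in edgeR's quasi-likelihood test, and with correction 3744 and 6. Without library 16, 3 genes were called after correction and 3 in edgeR. The median relative change of the 10, without library 13 and without library 16, was -1.67 and 0.20 as deposited, -1.25 and 0.19 after correction, and -1.68 and 0.18 in edgeR. Relative changes over the fits that left out 1 library ranged, as deposited, after correction and in edgeR, over -2.29 to 0.22, -1.24 to 0.19 and -2.32 to 0.19 for Mki67, -2.72 to -0.14, -1.93 to -0.18 and -2.72 to -0.16 for Top2a, -1.33 to 0.56, -0.96 to 0.58 and -1.33 to 0.56 for Aurka, -1.69 to 0.18, -2.19 to 0.19 and -1.71 to 0.17 for Bub1, -1.64 to 0.35, -1.35 to 0.36 and -1.66 to 0.35 for Plk1, -0.97 to 0.08, -0.50 to 0.06 and -0.97 to 0.07 for Cenpe, -1.60 to 0.12, -0.97 to 0.10 and -1.61 to 0.11 for Cenpf, -2.29 to -0.23, -1.53 to -0.25 and -2.32 to -0.24 for Ccnb1, -1.92 to 0.32, -1.26 to 0.31 and -1.94 to 0.30 for Cdk1, and -0.70 to 0.62, 0.30 to 0.65 and -0.70 to 0.62 for Aurkb. Without library 16, 8 of the 10 were thus above the median gene, and Top2a and Ccnb1 below it. Depth limits Aurkb most, with 17 reads in control library 9.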
